A study of Homo sapiens with 4 samples.

Results

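The genes described here make sterols and fatty acids or set how much of them a cell makes. They are 32 genes taken by name from a table of 40205 gene symbols, grouped as 7 enzymes of the mevalonate pathway, 10 enzymes from squalene to cholesterol, 6 regulators, 7 fatty acid enzymes and 2 exporters. All 32 passed the filter on low counts. The libraries were made from A549, a human lung adenocarcinoma line grown with fetal bovine serum, and siRNA, a short RNA that lowers its target, had been transfected 24 h before. In libraries Knockdown-670 and Knockdown-732 the siRNA was directed at the long non-coding RNA SBF2-AS1, and in libraries NC-1 and NC-2 it was a negative control. The labels do not explain what the suffixes of the knockdown names stand for or say whether a group's libraries came from separate cultures. The p-values therefore cover only how far these libraries lie apart, which may be technical.

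Cells build cholesterol from acetyl-CoA through mevalonate, farnesyl pyrophosphate, squalene and lanosterol. Genes for these steps are switched on by the SREBP transcription factors, which SCAP carries from the endoplasmic reticulum to the Golgi for cleavage when sterols are scarce. The INSIG proteins hold SCAP back when sterols are plentiful, and liver X receptors then switch on the exporters ABCA1 and ABCG1.

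The libraries held 12149767 and 12894529 counts in the knockdown and 12701132 and 12938143 in the controls. Levels are CPM, the count of a gene relative to all counts of its library, scaled by the trimmed mean of M values (TMM), and p-values are from edgeR's quasi-likelihood test, adjusted by Benjamini-Hochberg over the 16120 genes tested. SBF2-AS1 had 1.27 and 1.42 CPM in Knockdown-670 and Knockdown-732, against 4.41 and 5.97 CPM in NC-1 and NC-2 (log2 fold change -1.94, SE 0.30, edgeR adjusted p = 3.19e-05). These were 15 and 18 counts in the knockdown and 57 and 79 in the controls. SBF2-AS1 shares 1495 exon bases with SBF2 on the opposite strand in GENCODE. SBF2 had 1604 and 1790 counts in the knockdown and 1468 and 1405 in the controls. Whether the counting was stranded is not stated, so reads from the shared bases cannot be told apart. The epithelial markers KRT8, KRT18, KRT19, EPCAM and CDH1 were all counted and summed to 2570 and 2450 CPM in the knockdown and 3920 and 4030 CPM in the controls, scaled by library size. KRT8 and KRT18 made up most of that sum, while KRT19 was higher in the knockdown (1533 and 1756 counts, against 874 and 815 in the controls) and CDH1 overlapped (1417 and 1571 counts in the knockdown, 1335 and 1620 in the controls). The fibroblast list summed to 12.8 and 10.1 CPM in the knockdown and 9.29 and 9.66 CPM in the controls. The hepatocyte markers ALB, APOA1, APOB and TTR summed to at most 0.62 CPM in any library, and of the 4 adipocyte markers ADIPOQ, LEP and FABP4 had 0 counts in all 4 libraries, while PLIN1 had 11 and 8 counts in the knockdown and 10 and 9 in the controls. The immune list summed to 184 and 167 CPM in the knockdown, against 69.9 and 69.3 CPM in the controls, most of it CD68. CD14, also on that list, was lower in the knockdown, with 102 and 122 counts against 156 and 131 in the controls. PTPRC, which marks all leukocytes, had at most 1 count. Whether these shifts play a part in the results was not tested, and in bulk RNA fewer cells of a type and less RNA per cell cannot be told apart.

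The sterol and fatty acid genes did not move as a block. Of the 32, 7 rose and 11 fell in the knockdown at an adjusted p of 0.05 (edgeR), and 14 did not pass. That is 56.2% called, where 46.3% of all genes tested were called, 23.5% higher and 22.8% lower. The median log2 fold change was -0.12 over the 32 genes and -0.0024 over all genes tested. The 2 changes of at least 2-fold were both rises, in INSIG1 and ABCA1 (10.2% of all genes tested were called and at least 2-fold changed). For 28 of the 32 genes the groups did not overlap (72.6% of all genes tested), and 31 of 32 had the same sign in both knockdown libraries, which share the controls.

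The sign of several changes, among them the called rises of FASN and SREBF2, differed once offsets for transcript GC content and length were used together. Over the tested genes that could be matched to a GENCODE transcript, the median log2 fold change was -0.24 in the 3679 genes lowest in GC (30.2% to 42.3%) and 0.26 in the 3679 highest (56.5% to 74.5%). With the offsets, 4 of the 32 genes rose and 14 fell, where over all genes fitted 3174 rose and 3500 fell. Of the 18 calls, 8 held in all 14 alternative analyses: INSIG1, INSIG2 and ABCA1 among the rises, and ACAT2, MVK, FDPS, CYP51A1 and FADS2 among the falls.

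**Figure D1:**
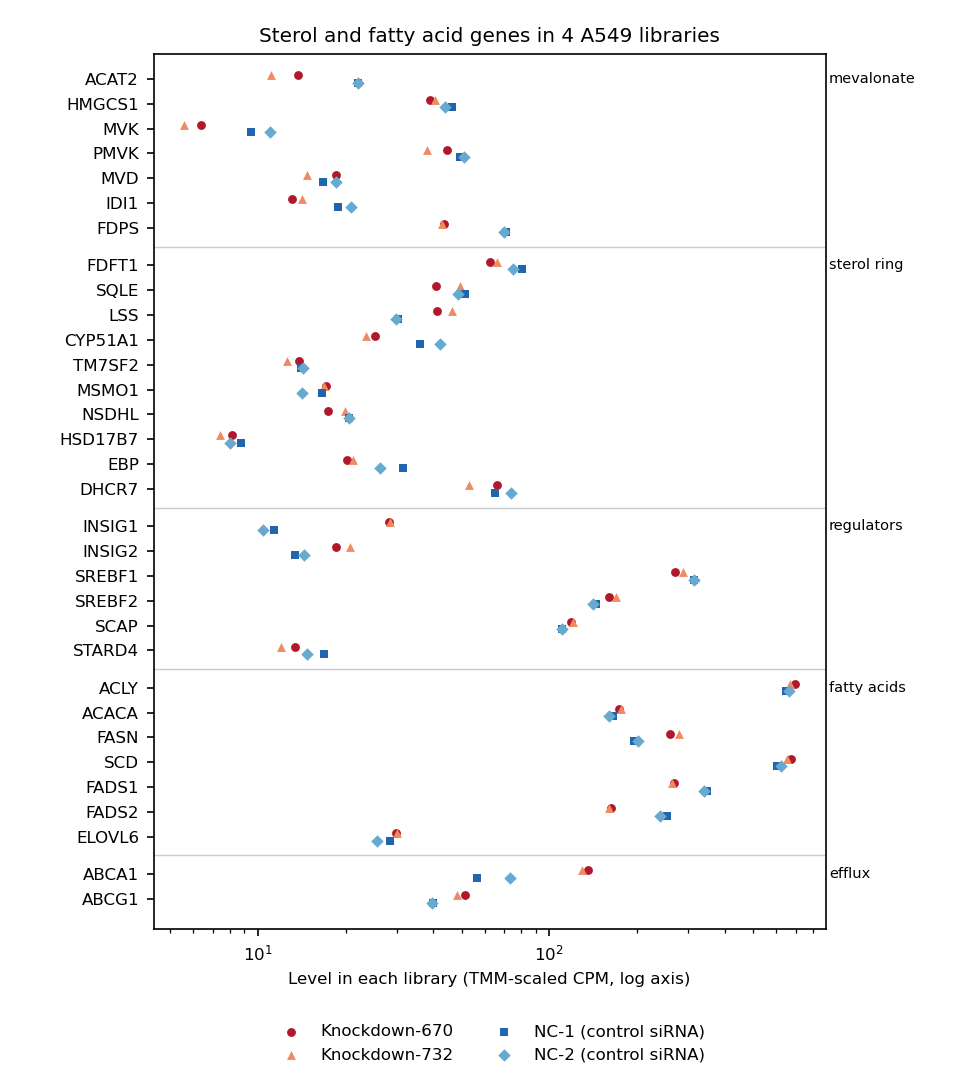
Level of each of the 32 genes in each library, in TMM-scaled CPM on a log axis, with genes grouped by step. Circles and triangles are Knockdown-670 and Knockdown-732, and squares and diamonds are NC-1 and NC-2. INSIG1 lies at 28.3 and 28.5 CPM in the knockdown, right of the controls at 11.4 and 10.4 CPM, and FDPS lies left of its controls.

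The mevalonate enzymes held 5 of the 11 falls. Of 7, 5 fell, none rose and HMGCS1 and MVD did not pass, with a median log2 fold change of -0.55 (22.8% of all genes tested fell). Summed over the 7 genes the level was 179 and 167 CPM in Knockdown-670 and Knockdown-732 and 234 and 237 CPM in NC-1 and NC-2. With the offsets for GC and length 4 fell and the median was -0.38.

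ACAT2, the cytosolic thiolase that joins acetyl-CoA units at the head of the pathway, had 13.7 and 11.1 CPM in the knockdown libraries, against 22.1 and 22.0 CPM in the controls. The groups did not overlap, and ACAT2 fell by 43.9% (log2 fold change -0.83, SE 0.14, edgeR adjusted p = 8.63e-05). ACAT2 shares exon bases with SOD2 and TCP1 on the opposite strand in GENCODE (1141 and 397 bases). SOD2 was higher in the knockdown, with 3288 and 3794 counts against 2609 and 2493 in the controls. TCP1 was lower, with 1732 and 1812 counts in the knockdown against 2408 and 2373 in the controls. No source used here says whether the counting was stranded, so reads from the shared bases cannot be told apart.

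MVK, mevalonate kinase, was the scarcest of the 32 in the knockdown per kilobase of longest transcript, at 1.46 CPM per kb in the knockdown and 2.51 in the controls. Its level was 6.37 and 5.59 CPM in the knockdown and 9.51 and 11 CPM in the controls, with every knockdown library below both controls (log2 fold change -0.78, SE 0.18, edgeR adjusted p = 0.0016). It shares 306 exon bases with MMAB on the opposite strand, which had 134 and 121 counts in the knockdown and 202 and 195 in the controls.

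FDPS, which makes farnesyl pyrophosphate, the branch point to sterols and prenyl groups, had 43.6 and 43.0 CPM in the knockdown, against 70.9 and 69.7 CPM in the controls. This was the tightest of the mevalonate changes, with SDs of 0.38 CPM in the knockdown and 0.86 CPM in the controls (n = 2 each) and a log2 fold change of -0.70 (95% interval -0.87 to -0.52, edgeR adjusted p = 1.65e-06). The 10 FDPS pseudogene symbols in the table together had 20 and 24 counts in the knockdown and 60 and 62 in the controls. FDPS itself had 513 and 546 counts in the knockdown and 917 and 922 in the controls.

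IDI1, the isomerase that makes dimethylallyl pyrophosphate, had 13.1 and 14.2 CPM in the knockdown and 18.9 and 20.9 CPM in the controls (log2 fold change -0.55, edgeR adjusted p = 0.003). With the offsets for GC and length it was at -0.31 and no longer passed (edgeR adjusted p = 0.0643). PMVK, the next kinase after MVK, fell by 0.28 on the log2 scale (44.5 and 38.1 CPM in the knockdown, 49.5 and 50.9 CPM in the controls; edgeR adjusted p = 0.0206). That call was lost without Knockdown-732 (log2 -0.19, adjusted p = 0.221), without NC-2 (-0.27, 0.0649) and in DESeq2 (-0.28, 0.0977).

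HMGCS1, the synthase before the committed step and a classical SREBP target, had 38.9 and 40.7 CPM in the knockdown and 46.4 and 43.9 CPM in the controls. Its log2 fold change of -0.18 had a 95% interval of -0.37 to 0.01 and did not pass (edgeR adjusted p = 0.119), and with the offsets it was at 0.09. MVD, the decarboxylase, overlapped between groups, at 18.6 and 14.7 CPM in the knockdown and 16.7 and 18.5 CPM in the controls (log2 -0.08, 95% interval -0.38 to 0.22). It had the widest gap between the knockdown libraries of any of the 32, 0.33 on the log2 scale, and stood at 0.07 without Knockdown-732.

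From squalene to cholesterol 3 of 10 enzymes fell, 1 rose and 6 did not pass (40% called, below the 46.3% of all genes tested), with a median log2 fold change of -0.14. CYP51A1, the lanosterol demethylase, had 25.2 and 23.6 CPM in the knockdown, against 36.0 and 42.2 CPM in the controls. The groups lay apart (log2 fold change -0.68, SE 0.11, edgeR adjusted p = 7.53e-05), and with the offsets for GC and length the value was -0.45 (adjusted p = 0.00126). LSS, the cyclase that folds squalene epoxide into lanosterol and so feeds CYP51A1, went the other way, with 41.3 and 46.4 CPM in the knockdown and 30.2 and 29.9 CPM in the controls (log2 fold change 0.55, SE 0.10, edgeR adjusted p = 0.000228). It was the only one of the 17 enzymes from ACAT2 to DHCR7 to rise, but with the offsets for GC and length its log2 fold change was 0.20 and did not pass (edgeR adjusted p = 0.106).

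EBP, the isomerase that shifts the ring double bond, had 20.2 and 21.2 CPM in the knockdown and 31.5 and 26.2 CPM in the controls (log2 fold change -0.48, edgeR adjusted p = 0.00414). Without NC-1, the higher control, it was at -0.35 and did not pass (adjusted p = 0.073). FDFT1, squalene synthase, had 62.7 and 66.2 CPM in the knockdown and 80.5 and 75.1 CPM in the controls (log2 fold change -0.27, edgeR adjusted p = 0.00962). That call was lost without Knockdown-670 (-0.24, adjusted p = 0.068), without NC-1 (-0.23, 0.0685) and in DESeq2 (-0.27, 0.0513).

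SQLE, the epoxidase that limits this branch, had 40.9 and 49.5 CPM in the knockdown and 51.5 and 48.6 CPM in the controls, so the groups overlapped (log2 -0.14, 95% interval -0.35 to 0.06). Only Knockdown-670 was low, and without Knockdown-732 the log2 fold change was -0.30 (edgeR adjusted p = 0.0373). DHCR7, which makes cholesterol from 7-dehydrocholesterol, also overlapped, at 66.0 and 53.2 CPM in the knockdown and 65.3 and 74.2 CPM in the controls (log2 -0.23, 95% interval -0.45 to -0.01, edgeR adjusted p = 0.0785). It passed without Knockdown-670 (-0.39, adjusted p = 0.00174), without NC-1 (-0.32, 0.0229), and with the offsets (-0.42, 0.000556). TM7SF2, MSMO1, NSDHL and HSD17B7, which work on the ring between CYP51A1 and EBP, had log2 fold changes of -0.14 to 0.14, and none passed. The widest of their 95% intervals, for HSD17B7, ran from -0.47 to 0.26. MSMO1, whose transcript has 38.1% GC, stood at 0.51 with the offsets and then passed (edgeR adjusted p = 0.00308).

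**Figure D2:**
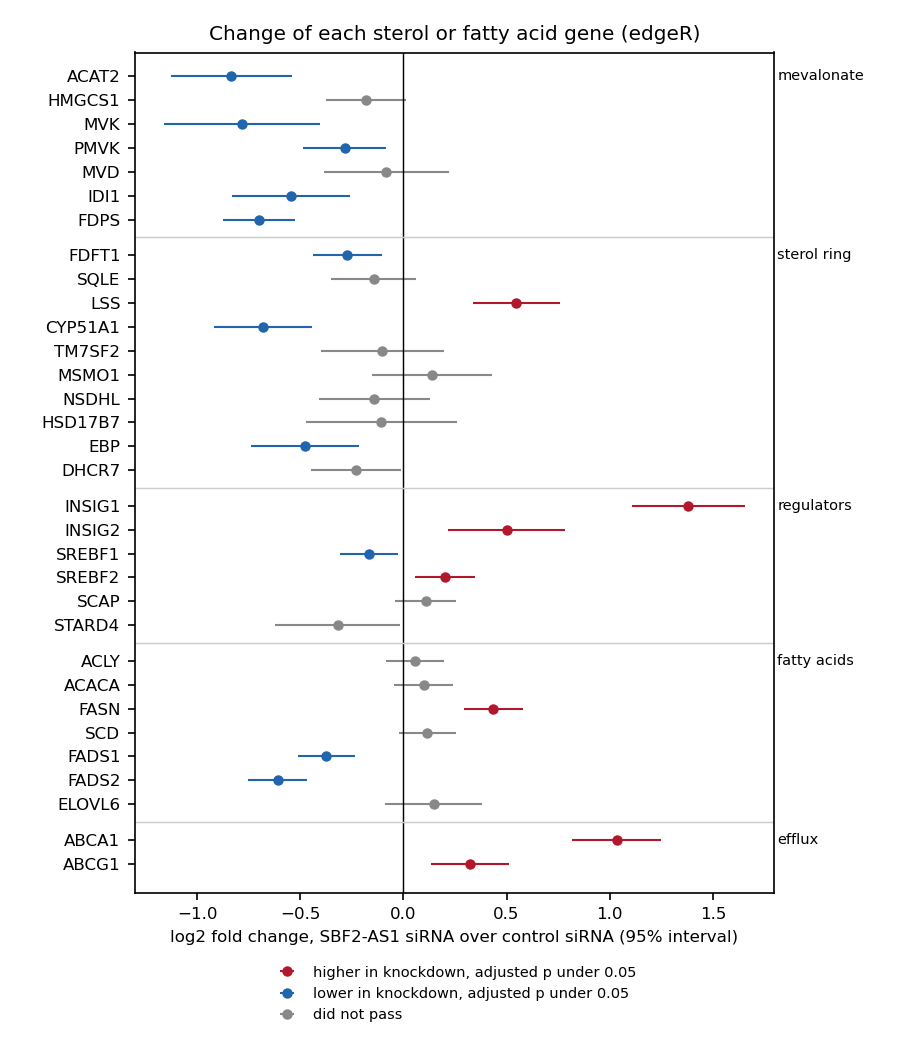
Log2 fold change of each of the 32 genes, SBF2-AS1 siRNA over control siRNA, with its 95% interval from edgeR's quasi-likelihood fit. Red points were higher and blue points lower in the knockdown at an adjusted p of 0.05, and grey points did not pass. Blue points gather among the mevalonate enzymes, and INSIG1 and ABCA1 lie farthest to the right.

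Among the regulators both INSIG genes rose, and the SREBP genes themselves shifted by at most 0.20 on the log2 scale. INSIG1, the retention protein whose own gene SREBP drives, had 28.3 and 28.5 CPM in the knockdown and 11.4 and 10.4 CPM in the controls. This was the largest change among the 32, a 2.61-fold rise (log2 fold change 1.38, SE 0.13, edgeR adjusted p = 9.4e-08), higher than 97.1% of the fold changes of all genes tested. INSIG2, its relative, had 18.6 and 20.7 CPM in the knockdown and 13.4 and 14.4 CPM in the controls (log2 fold change 0.50, SE 0.14, edgeR adjusted p = 0.00546). Its transcript is poor in GC (35.4%), and with the offsets its log2 fold change was 0.94.

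SREBF2, which encodes the SREBP of sterol genes, had 160 and 169 CPM in the knockdown and 145 and 141 CPM in the controls (log2 fold change 0.20, edgeR adjusted p = 0.0248). SREBF1, which encodes the SREBP of fatty acid genes, had 270 and 288 CPM in the knockdown and 314 and 314 CPM in the controls (log2 fold change -0.17, edgeR adjusted p = 0.0481). Both calls were weak. SREBF1 did not pass in 8 of 14 alternatives, among them without Knockdown-670 (-0.12, adjusted p = 0.306), without NC-1 (-0.17, 0.0955), without NC-2 (-0.17, 0.0825) and DESeq2 (-0.17, 0.094), while with the offsets it was at -0.60 (6.48e-09). SREBF2 did not pass without Knockdown-732 (0.15, 0.225), without NC-2 (0.17, 0.105), in DESeq2 (0.20, 0.0759) or with library size only (0.14, 0.124), and turned to -0.17 with the offsets (0.0407). SREBF1 shares 556 exon bases with RAI1 on the opposite strand.

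SCAP, the escort protein, had 119 and 121 CPM in the knockdown and 111 and 111 CPM in the controls (log2 0.11, 95% interval -0.04 to 0.26), and stood at -0.29 with the offsets (edgeR adjusted p = 0.000906). STARD4, a carrier that moves cholesterol between membranes and is itself an SREBP target, had 13.4 and 12 CPM in the knockdown and 16.9 and 14.7 CPM in the controls (log2 -0.32, edgeR adjusted p = 0.0793), and 0.10 with the offsets. Of the 6 regulators 3 rose and 1 fell (66.7% called, against 46.3% of all genes tested). With library size only 2 rose and 2 fell, where over all genes 3243 rose and 4265 fell. With the offsets 2 rose and 3 fell, where over all genes fitted 3174 rose and 3500 fell.

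Both exporters rose. ABCA1, which loads cholesterol onto apolipoprotein A-I, had 136 and 130 CPM in the knockdown and 56.5 and 73.2 CPM in the controls. The controls differed more than the knockdown libraries did, and the gap between groups was wider than either (2.05-fold, log2 fold change 1.03, SE 0.10, edgeR adjusted p = 1.62e-06). ABCG1, which passes cholesterol to mature high-density lipoprotein, had 51.3 and 48.4 CPM in the knockdown and 40 and 39.7 CPM in the controls (log2 fold change 0.32, SE 0.09, edgeR adjusted p = 0.00643). That call was lost without Knockdown-670 (0.28, adjusted p = 0.0594) and with the offsets (0.16, 0.137).

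The stretches below lie upstream of the annotated starts of the gene that rose most (INSIG1), the exporter that rose most (ABCA1), the mevalonate enzyme with the tightest fall (FDPS), and SREBF2, which alone of the 27 genes with a promoter in the RefSeq table (GRCh38.p14) holds the searched sterol element. ACAT2, FDFT1, SQLE, FASN and ABCG1 had no entry. Each is 120 bases, 5′ to 3′ on the strand of the gene, and capitals mark matches on either strand to TCACNCCAC (a sterol regulatory element), CACGTG (an E-box), CCAAT (the NF-Y box) or GGGCGG (a GC box). The INSIG1 stretch is chr7:155297656-155297775, + strand, that of ABCA1 chr9:104928238-104928357, - strand, that of FDPS chr1:155308628-155308747, + strand and that of SREBF2 chr22:41832959-41833078, + strand. They end 103 (INSIG1), 83 (ABCA1), 119 (FDPS) and 27 (SREBF2) bases before the RefSeq start, so matches nearer that start are not shown. For FDPS these are NF-Y boxes at -122 and -51 and a GC box at -22. For INSIG1 they are GC boxes at -93 and -80 and an E-box at -55, and for SREBF2 GC boxes at -23 and -10.
INSIG1: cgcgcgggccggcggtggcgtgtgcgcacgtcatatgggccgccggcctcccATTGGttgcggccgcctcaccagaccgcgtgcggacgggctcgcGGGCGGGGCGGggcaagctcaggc
ABCA1: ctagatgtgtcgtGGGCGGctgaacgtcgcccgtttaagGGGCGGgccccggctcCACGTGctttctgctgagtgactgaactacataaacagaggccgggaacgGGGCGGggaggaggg
FDPS: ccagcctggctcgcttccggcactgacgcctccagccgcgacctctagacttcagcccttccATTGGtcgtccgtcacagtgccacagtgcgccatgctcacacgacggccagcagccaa
SREBF2: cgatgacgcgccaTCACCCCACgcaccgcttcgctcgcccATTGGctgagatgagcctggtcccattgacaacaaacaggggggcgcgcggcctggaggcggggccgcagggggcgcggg

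In the 250 bases before any annotated start, the NF-Y box was present in 18 of the 27 genes, or 66.7%, against 41.3% of the 10176 tested genes with a promoter entry and 37% of all 27305 genes in the table. NF-Y is a factor known to act beside SREBP. The box stood before 3 of the 5 genes that rose and had an entry and before 4 of the 9 that fell. The GC box was present in 26 of 27 (96.3%, against 74.2% of tested genes), the E-box in 3 (11.1%, against 11.2%) and the sterol element in 1 (3.7%, against 1.16%). The only match of the sterol element was TCACCCCAC before SREBF2. A match is a description of the letters, and its absence says only that these letters are not in the window.

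Of the fatty acid enzymes FASN rose with TMM scaling (not with the offsets), FADS1 and FADS2 fell, and 4 did not pass. Per kilobase of longest transcript the most abundant of the 32 were ACLY, which makes cytosolic acetyl-CoA, at 157 CPM per kb in the knockdown and 151 in the controls, and SCD, which makes oleate, at 124 in the knockdown and 114 in the controls. ACLY had 697 and 669 CPM in the knockdown and 647 and 667 CPM in the controls, with a log2 fold change of 0.06 (95% interval -0.08 to 0.20). ACACA, which makes malonyl-CoA, was at 0.10 (-0.05 to 0.24), SCD at 0.12 (-0.02 to 0.26) and ELOVL6, which extends palmitate, at 0.15 (-0.09 to 0.38). These intervals leave room for rises of up to about 0.38 on the log2 scale, and none of the 4 passed. With the offsets ACLY stood at -0.13 and ACACA at -0.12, and with library size only ACLY stood at -0.01.

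FASN, fatty acid synthase, had 260 and 278 CPM in the knockdown and 196 and 202 CPM in the controls (log2 fold change 0.43, SE 0.07, edgeR adjusted p = 4.11e-05). Its transcript has the highest GC content of the 32 (65.3%), and with the offsets for GC and length it was lower in the knockdown (log2 -0.25, edgeR adjusted p = 0.00152), so its direction depended on that setting. FADS2 and FADS1, the delta-6 and delta-5 desaturases that make polyunsaturated fatty acids, both fell. FADS2 had 163 and 160 CPM in the knockdown and 254 and 240 CPM in the controls (log2 fold change -0.61, SE 0.07, edgeR adjusted p = 7.92e-07; -0.98 with the offsets). FADS1 had 268 and 263 CPM in the knockdown and 349 and 339 CPM in the controls (log2 fold change -0.37, SE 0.07, edgeR adjusted p = 0.000139).

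The desaturase genes lie together on chromosome 11 in GENCODE (GRCh38), with FADS1 inside the annotated span of FADS2: FADS1 at 61799625 to 61829318 on the - strand, FADS2 at 61792980 to 61867354 on the + strand and FADS3 at 61873519 to 61892051 on the - strand. FADS1 and FADS2 share 490 exon bases on opposite strands, and FADS2 shares 49 with FEN1 on the same strand. FEN1 had 224 and 278 counts in the knockdown and 572 and 590 in the controls. FADS3, which is no member of the 32, moved the other way, with 112 and 102 CPM in the knockdown and 41.5 and 41.8 CPM in the controls (log2 fold change 1.36, SE 0.08, edgeR adjusted p = 2.38e-10). So the cluster held 2 genes that fell beside 1 that rose. Of the 7 fatty acid enzymes 1 rose and 2 fell (42.9% called, below the 46.3% of all genes tested), and with the offsets none rose and 3 fell.

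**Figure D3:**
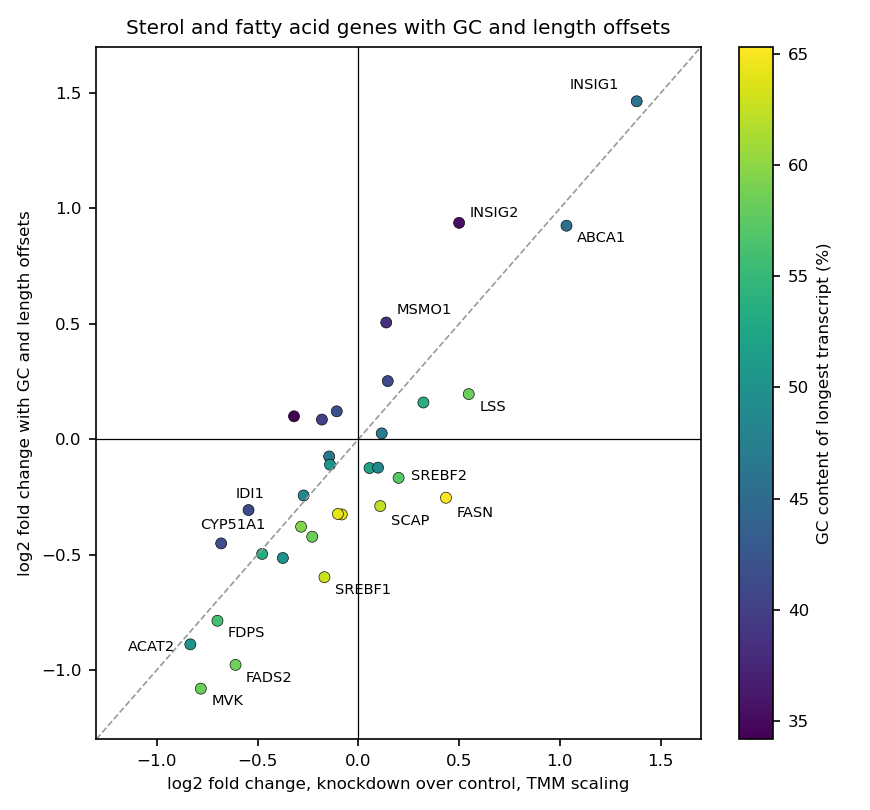
Log2 fold change of each of the 32 genes, knockdown over control, with TMM scaling (x axis) and with offsets for transcript GC content and length (y axis), coloured by the GC content of the longest transcript in percent. The dashed line marks equal values. FASN (0.43 and -0.25), SREBF2 (0.20 and -0.17) and SCAP (0.11 and -0.29) cross below 0, while on the y axis INSIG1, INSIG2 and ABCA1 lie at 1.46, 0.94 and 0.93.

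Other lipid genes were read from 8 lists. For comparison, 23.5% of all genes tested rose, 22.8% fell and 46.3% were called in either direction. In sterol uptake, storage and transport 11 of 21 genes rose and 5 fell (76.2% called), with a median log2 fold change of 0.52, and 11 rose in all 14 alternatives, while the 5 that fell became 3 without Knockdown-732 and without NC-2. LRP1, an endocytic receptor of lipoproteins, had 1010 and 979 CPM in the knockdown and 282 and 287 CPM in the controls (log2 1.81, edgeR adjusted p = 6.08e-13). NPC1, which lets cholesterol out of lysosomes, had 274 and 263 CPM in the knockdown and 120 and 130 CPM in the controls (log2 1.10, edgeR adjusted p = 6.01e-10). The high-density lipoprotein receptor SCARB1 was at 0.80 (edgeR adjusted p = 2.04e-08) and the lysosomal lipase LIPA at 0.83 (6.32e-08). Of 21 lipid droplet and glycerolipid genes 12 rose and 0 fell, with a median of 0.43, or 11 higher and 3 lower with library size only, 8 and 1 with the offsets, and 1 lower without Knockdown-670. The droplet coat proteins PLIN2 and PLIN3 were at 1.36 (edgeR adjusted p = 3.17e-11) and 0.95 (1.79e-08), the droplet protein HILPDA at 0.95 (1.9e-09) and the phosphatidate phosphatase LPIN3 at 0.85 (1.87e-06).

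The branches that lead from farnesyl pyrophosphate to ubiquinone, dolichol and prenylated proteins held 21 tested genes, of which 10 fell, 2 rose and 9 did not pass (22.8% of all genes tested fell). Their median log2 fold change was -0.37. The 2 rises became 1 without Knockdown-732, without NC-1 and without NC-2, and with the offsets. COQ5, a ubiquinone methyltransferase, had 23.3 and 26.7 CPM in the knockdown and 64.6 and 54.3 CPM in the controls (log2 -1.25, edgeR adjusted p = 3.27e-08). The prenyl-protein genes ZMPSTE24, PGGT1B and RABGGTB were at -0.61 (edgeR adjusted p = 7.65e-05), -0.80 (0.000145) and -0.59 (0.000177). Of 19 genes of SREBP processing and reductase turnover 6 rose and 2 fell, or 42.1% called, below the 46.3% of all genes tested. The coat proteins SEC24D and SEC24A, of the vesicles that carry SCAP and other cargo, were at 0.83 (edgeR adjusted p = 2.92e-07) and 0.94 (2.27e-06), the GTPase SAR1A at 0.47 (0.000139) and the ubiquitin ligase SYVN1 at 0.89 (2.12e-08). Of 12 oxysterol and liver X receptor genes with enough counts 5 rose and 1 fell (50% called, near the 46.3% of all genes tested). Without Knockdown-670 2 rose, without each other library 3 rose, and with the offsets 1 rose and 2 fell. In that list NR1H2, a liver X receptor, was at 0.23 (edgeR adjusted p = 0.0169), the transporter ABCC1 at 0.38 (0.00045) and the sterol transporter ABCG4 at 0.99 (0.0314). CH25H, which makes 25-hydroxycholesterol, had 1 and 0 counts in Knockdown-670 and Knockdown-732 and 0 and 1 in NC-1 and NC-2.

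Beyond the 7 enzymes, 25 fatty acid genes were tested, of which 6 rose and 7 fell (8 and 6 with the offsets), 52% called against 46.3% of all genes tested. Besides FADS3, the activating enzymes ACSL4 and ACSL3 went opposite ways, at 0.72 (edgeR adjusted p = 1.56e-07) and -0.58 (3.34e-06), and PTPLB, a dehydratase of elongation, was at -1.57 (1.47e-07). Of 25 tested genes of fatty acid oxidation 6 rose and 6 fell (3 and 7 with library size only), 48% called and so near the 46.3% of all genes tested. Its regulators PPARA and PPARD were at 1.32 (edgeR adjusted p = 1.83e-07) and 0.77 (1.48e-05), while the coactivator PPARGC1A was at -1.20 (7.1e-05) and the dehydrogenase HADH at -0.91 (2.28e-06). In the short list of other sterol enzymes 1 of 5 genes rose and 1 fell (40% called), with 3 rises with the offsets but 0 without Knockdown-670, in DESeq2 and with library size only. Over all 8 lists 49 genes rose and 32 fell of 149 (54.4% called, against 46.3% of all genes tested). With library size only 40 rose and 40 fell, where over all genes 3243 rose and 4265 fell.

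**Figure D4:**
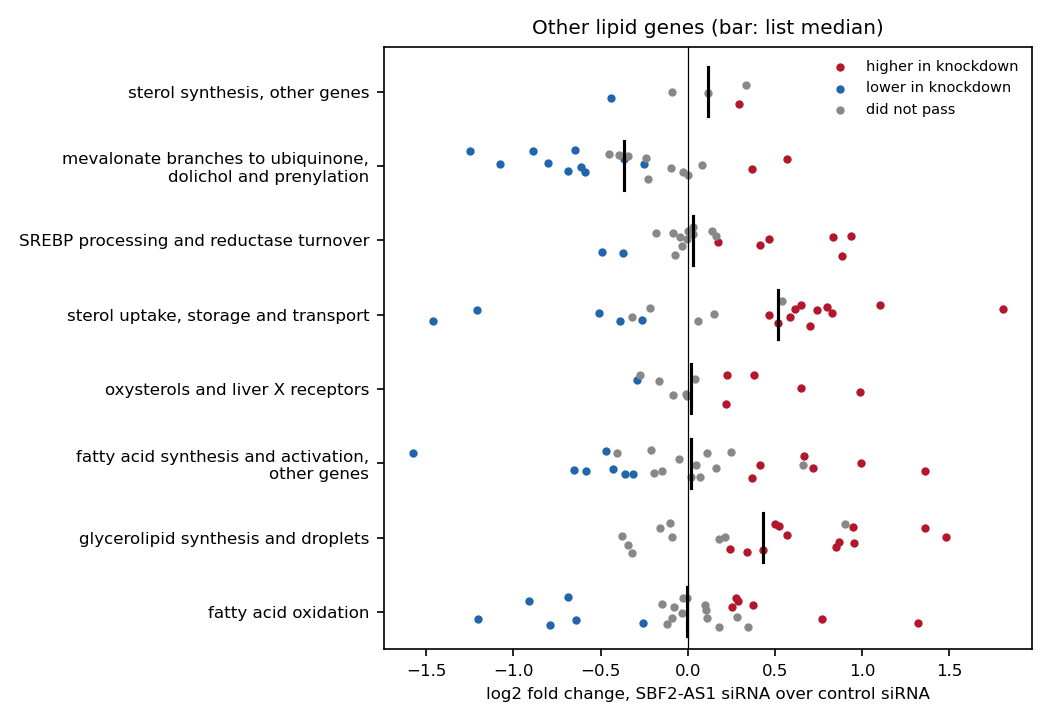
Log2 fold change, SBF2-AS1 siRNA over control siRNA, of each tested gene in the 8 other lipid lists, spread vertically for legibility. Red points were higher and blue points lower in the knockdown at an adjusted p of 0.05, grey points did not pass, and the black bar is the list's median. The medians of sterol uptake, storage and transport (0.52) and of glycerolipid synthesis and droplets (0.43) lie right of 0, and that of the mevalonate branches (-0.37) lies left of it.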

How the data were processed

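Per the labels' protocols, RNA from 4 samples was sequenced on the Ion Proton, and the authors deposited whole-number counts for each gene symbol. The submitters' processing notes give GRCh37 as genome build; aligner, counter, gene models and strandedness are stated in no source used here. Of 40205 symbols 0 were blank, and 0 columns belonged to no sample.

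Counts were used as deposited. The test was that of edgeR 4.0.16 under R 4.3.3 (filterByExpr, TMM, robust glmQLFit and glmQLFTest, Benjamini-Hochberg at 0.05). SE is the log2 fold change over the root of F, and 95% intervals use the fit's degrees of freedom. The biological coefficient of variation was 6.64%. Replicates differed beyond counting noise, with a chi-square per gene of 3.42 in the knockdown and 3.72 in the controls, where 1 is expected of repeat counts. On simulated counts with 200 changed genes among 15699, edgeR called 70.1% of those changed 1.5-fold, 82.1% at 2-fold and 98.5% at 4-fold, and 3.47% of the 173 calls were unchanged genes.

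Transcript GC content and length (longest GENCODE 29 transcript, GRCh38, joined by symbol) were available for 91.3% of the tested genes and all 32 sterol and fatty acid genes. The offsets were a loess (span 0.3) of each library's log2 CPM (prior count 2) deviation on both. Alternatives were other scalings, filters and tests (limma-voom in limma 3.58.1, DESeq2 1.42.0, glmTreat against 1.2-fold), these offsets, and each library left out. Named from the other lists were up to 4 called genes of smallest p; some that this rule picks are not reported here. CH25H and the marker genes, and the overlapping genes of the 32 and of SBF2-AS1, are named besides. The 32 genes and the lists were chosen with earlier results of these data known.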

Additional observations from a re-analysis of the deposited data

How the results depend on the processing

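No paired analysis was possible because the libraries of the 2 groups share no replicate number. Of the 18 called sterol and fatty acid genes, 8 kept their call and direction in all 14 alternatives. Against a 1.2-fold change instead of none (glmTreat), 6 of the 32 fell, 5 of the 17 sterol enzymes fell, 32 genes of the other lists rose, and over all genes 2451 rose and 2229 fell. With offsets for GC content and length 4 of the 32 rose. The median log2 fold change of the 32 was -0.21 with those offsets, -0.19 with library size only, and -0.14 to -0.070 with each library left out, where 6 to 7 of the 32 rose and 9 to 11 fell.

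The direction turned under the offsets for FASN (-0.25), SREBF2 (-0.17), SCAP (-0.29), ACLY (-0.13), ACACA (-0.12), HMGCS1 (0.085), HSD17B7 (0.12) and STARD4 (0.10), for ACLY with library size only (-0.008), and for MVD without Knockdown-732, where leaving out each library gave -0.26 to 0.067. Of these, FASN and SREBF2 had been called, and the cause was not tested. With 2 libraries a group, 70.1% of simulated 1.5-fold changes were called, so some changes of that size were missed there. The simulation changed 200 genes among 15699, whereas 46.3% of all genes tested were called in these data. The 70.1% therefore need not hold here, and how often changes in the sterol and fatty acid genes are missed was not tested.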
